A study of Rattus norvegicus with 9 samples.

Results

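The genes described here mark oligodendrocyte precursor cells, the dividing glial cells of the adult brain that give rise to myelin-forming oligodendrocytes. The set holds 8 genes chosen by name, Pdgfra, Cspg4, Olig1, Olig2, Sox10, Gpr17, Nkx2-2, and Bcas1. Of these 8, 7 had a probe on the array under their own symbol, with 9 probes among the 30367 different probes of the array. Nkx2-2, a homeobox transcription factor of the lineage, had none and could not be measured. Where a gene had more than 1 probe, the brightest over the 9 arrays stood for it.

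The data are 9 single-color Agilent SurePrint G3 arrays of male Sprague Dawley rats, 1 rat per array, taken from the infarcted hemisphere at day 14. The 3 Sham rats had the neck artery exposed with no filament inserted and received solvent. The 3 I/R rats had 2 h of occlusion of the right middle cerebral artery (MCAO) followed by reperfusion. The 3 DHI rats had the same occlusion and then daily tail vein doses of Danhong injection, a preparation of Salvia miltiorrhiza and Carthamus tinctorius, until day 14. The comparisons ask what ischemia and reperfusion did to each gene (I/R versus Sham) and what the injection did after it (DHI versus I/R, DHI versus Sham). Filament occlusion leaves infarcts whose size can differ between rats, and whole tissue mixes lesion, border, and spared brain. Fewer cells of a type and less RNA per cell cannot be told apart in such tissue. All 3 DHI arrays sat on a slide of their own, scanned apart from the slide that held the other six, so an effect of the slide cannot be told apart from one of DHI.

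As background, precursors carry the receptor for platelet-derived growth factor (Pdgfra) and the NG2 proteoglycan (Cspg4) at their surface, and both are lost as the cells mature. Neither is confined to the lineage: fibroblasts also carry Pdgfra, and pericytes also carry Cspg4. The basic helix-loop-helix factors Olig1 and Olig2 and the HMG-box factor Sox10 specify the lineage and stay on in mature oligodendrocytes. Gpr17, a G protein-coupled receptor, marks a short stage between precursor and oligodendrocyte. Bcas1, a protein associated with myelin, marks cells that are beginning to make myelin and remains in myelinating cells. After injury precursors divide, gather at the lesion border, and can replace lost oligodendrocytes.

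Each value rests on a 60-base DNA probe fixed to the glass, and the stretches below are the first 30 bases of the probes that stood for the 7 genes, in lower case and 5′ to 3′ as the files give them. They show which part of each transcript was read, since a single short stretch decides every value that follows. The whole probes lie on the rn4 rat genome at chr14:35369708-35369767 (minus strand, Pdgfra), chr8:60645806-60645865 (plus strand, Cspg4), chr11:31246213-31246272 (plus strand, Olig1), and chr11:31208654-31208713 (plus strand, Olig2). Those of the other three lie at chr7:117138840-117138899 (minus strand, Sox10), chr18:24374271-24374330 (minus strand, Gpr17), and chr3:161395340-161395399 (minus strand, Bcas1). No exon annotation of that build was used here.
Pdgfra: tatctgttgctatgtagacttggagaatac
Cspg4: tgggaccaaagcccttacactacagggaac
Olig1: atgccgcgtctgcgtcttggcttgtgatta
Olig2: ctgccccgcagagtgtatctatcacttgtt
Sox10: tgcctcgcaccctttgctccagcgatatct
Gpr17: aaacgactcacaggtcctcctcccagcttt
Bcas1: tttgggggaacaattacttctgaggcacag

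Olig1 and Olig2 lie near each other on chromosome 11. Pdgfra, Cspg4, and Olig1 were each read from 10 spots per array, Olig2, Sox10, and Bcas1 from 2, and Gpr17 from 1. Between spots of the same probe on an array the median SD was 0.02 to 0.04 log2 units over the 6 genes with more than 1 spot, while the SD between rats of a group ranged from 0.04 to 1.08. The probes of all 7 genes were well above background on all 9 arrays. Errors below are the spread between rats. For Olig2 in the DHI group that spread, 0.04, was about as small as the spread between its spots, and Gpr17, with 1 spot, has no spot SD.

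Values are the log2 of the spot signal minus the log2 of the 75th percentile of the array, so that a value of 0 is the level of that percentile. A probe's value cannot be set against that of another probe, and only arrays are compared. The 75th percentile itself was an intensity of 1816 to 3464 over the 9 arrays, and 75.2% to 78.9% of probes were well above background. Over the 23747 probes tested, the median change was -0.10 in I/R versus Sham, 0.10 in DHI versus I/R, and 0.02 in DHI versus Sham. The arrays of the I/R and DHI groups were uneven over all tested probes. I/R 3 correlated with I/R 1 and I/R 2 at 0.96 and 0.97. With the Sham arrays I/R 3 correlated at 0.95, and I/R 1 and I/R 2 at 0.88 to 0.91. DHI 1 correlated with the I/R arrays at 0.98 to 0.99 and with DHI 2 and DHI 3 at 0.92 and 0.94, whereas DHI 2 and DHI 3 correlated with the Sham arrays at 0.98 to 0.99. Changes of the members in the DHI group, and counts of the marker lists there, are therefore given with and without DHI 1. DHI 1 is the DHI array most like I/R, so leaving it out favors small p-values against I/R. The limma p-values set each change against a spread between rats that is pooled over the 3 groups and drawn toward that of all tested probes. With 3 rats per group, a wide spread in 1 group also enters the comparison of the others.

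In I/R versus Sham, the surface markers Pdgfra and Cspg4 were higher, and the transcription factors and later-stage genes were not past either threshold. The study thresholds, an unadjusted p under 0.05 and a fold change over 1.5, were passed by 2 of the 7 genes, both higher. Among all tested probes 43.1% passed them, 20.8% higher and 22.3% lower. The same 2 genes passed once p-values were adjusted over the whole array (Benjamini-Hochberg, 0.05, same fold change), as did 31.5% of all tested probes. The count of 2 among 7 is near these shares and is no result about the set.

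Pdgfra, the growth factor receptor that drives precursor division, measured 0.81, 0.45, and 0.61 in the 3 Sham rats and 2.90, 2.38, and 2.10 in the 3 I/R rats. Every I/R rat was above every Sham rat. The mean was 0.62 ± 0.18 (SD, n = 3) in Sham and 2.46 ± 0.41 (SD, n = 3) in I/R. The change was 1.84 on the log2 scale (SE 0.49), or 3.57-fold, with an adjusted p of 0.0400 in limma.

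Cspg4, which codes for the NG2 proteoglycan, measured 1.01, 0.54, and 0.67 in Sham and 2.46, 1.87, and 1.46 in I/R. Here too the groups did not overlap, and the order of the I/R rats was that seen for Pdgfra, with I/R 1 the highest and I/R 3 the lowest. The mean went from 0.74 ± 0.24 to 1.93 ± 0.50 (SD, n = 3 each). The change was 1.19 (SE 0.32), or 2.28-fold, with an adjusted p of 0.0402 in limma.

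Both genes passed the study thresholds under all 21 alternative settings, with log2 changes of 1.61 to 2.03 for Pdgfra and 0.93 to 1.42 for Cspg4. Their adjusted p is less secure. Both calls were lost without scaling between arrays, and also when any single Sham array, I/R 1, I/R 2, or DHI 3 was left out. In those fits the number of probes called over the whole array went from 7471 to 0 or 1.

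The lineage transcription factors gave another picture. Olig1 measured 2.11, 1.98, and 2.54 in Sham and 2.46, 2.07, and 1.76 in I/R. I/R 3 was below all 3 Sham rats, and the other two I/R rats lay within the Sham range. The log2 change was -0.12 (95% interval -0.69 to 0.45), and it became 0.08 without scaling between arrays.

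Olig2 measured 0.10, 0.37, and 0.71 in Sham and 0.83, 0.53, and 0.35 in I/R. The change was 0.18 (95% interval -0.28 to 0.64). Sox10, which switches on myelin genes together with other factors, measured 0.74, 0.67, and 1.27 in Sham and 1.48, 1.22, and 0.66 in I/R. Its change was 0.23 (95% interval -0.39 to 0.85). For both factors I/R 1 lay above the Sham range, while I/R 3 lay within it for Olig2 and just below it for Sox10. Both intervals reach past 1.5-fold on the upper side, so an unchanged level is not shown.

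Gpr17 was the dimmest of the members, at an intensity of 199 to 315, and was read from a single spot. It measured -3.35, -3.19, and -3.09 in Sham and -3.49, -3.49, and -3.46 in I/R. All 3 I/R rats were below all 3 Sham rats, within a narrow range. Before scaling the groups overlapped, at intensities of 252, 300, and 308 in Sham and 234, 273, and 315 in I/R. The scaled change was -0.27 (SE 0.16, adjusted p = 0.218 in limma), which did not pass. Groups that did not overlap were found for 3 of the 7 genes, Pdgfra, Cspg4, and Gpr17, and for 62.5% of all tested probes.

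Bcas1, the marker of cells entering myelination, measured 3.88, 3.91, and 4.63 in Sham and 4.92, 4.43, and 3.76 in I/R. I/R 3 was the lowest of these 6 values and I/R 1 the highest. The change was 0.23 (95% interval -0.52 to 0.98). Its other probe, on the same chromosome at chr3:161395067-161395126, gave 0.27 (95% interval -0.62 to 1.16). The other Olig2 probe, at chr11:31206731-31206790, was well above background on 4 of 9 arrays, at an intensity of 9.74 to 23.1, and was not tested.

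**Figure D1:**
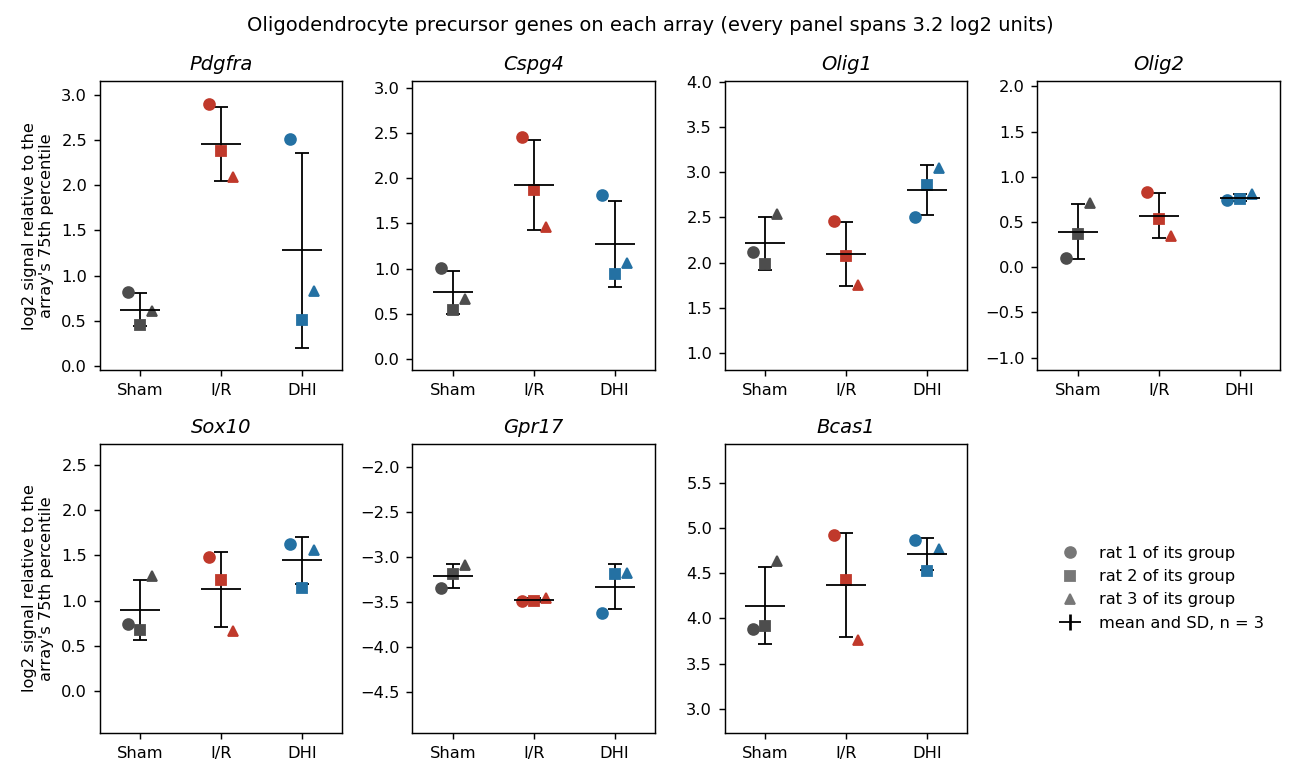
Log2 signal relative to the array's 75th percentile (vertical axis) of each gene in Sham, I/R, and DHI rats; points are single arrays with the rat number as shape, bars the mean and SD of 3 rats, and every panel spans the same number of log2 units. Pdgfra and Cspg4 are above the Sham range in all 3 I/R rats and in DHI 1, while Olig1 is highest in DHI 2 and DHI 3.

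Because all members were read on the same arrays, the change of 1 gene can be set against that of another within each array, which removes the scaling between arrays. Over the 21 pairs of members, the within-array difference did not overlap between I/R and Sham in 12 pairs. These were the 11 pairs that hold Pdgfra or Cspg4, and Olig1 with Sox10. Pairs of other probes were not counted, and 62.5% of single tested probes did not overlap, so the count is no result about the set. Pdgfra minus Sox10 was 0.07, -0.22, and -0.67 log2 units in the Sham rats and 1.42, 1.16, and 1.43 in the I/R rats. Pdgfra therefore changed by 1.61 log2 units more than Sox10. Cspg4 minus Sox10 was 0.27, -0.13, and -0.61 in Sham and 0.97, 0.65, and 0.80 in I/R, a difference of 0.96. Pdgfra also changed by 0.64 more than Cspg4, with -0.19, -0.09, and -0.06 in Sham against 0.45, 0.51, and 0.63 in I/R. The exact two-sided permutation test gave p = 0.1 for each of these 3 pairs, which is the smallest p that 3 against 3 allows, and 0.175 after Benjamini-Hochberg adjustment over the 21 pairs.

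DHI rats had a split pattern for the surface markers and a level of Olig1 that was higher at the unadjusted threshold only. The study thresholds were passed by 2 members in DHI versus I/R, Olig1 higher and Pdgfra lower, of the 7 tested. Among all tested probes 21.9% passed, 11.5% higher and 10.5% lower. The count of 2 among 7 is near 21.9% and is no result about the set. With the adjusted p, limma called 0 of the 7 genes and 0.00421% of all tested probes, that is 1 probe, although 6035 probes had an unadjusted p under 0.05. The methods' t-test also called 0 probes after adjustment.

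Pdgfra measured 2.51 in DHI 1, 0.51 in DHI 2, and 0.82 in DHI 3. DHI 1 was inside the I/R range, while DHI 2 was inside the Sham range and DHI 3 just above it. On a scale where the Sham mean is 0 and the I/R mean is 1, the DHI rats stood at 1.03, -0.06, and 0.11. The group mean of 1.28 ± 1.08 (SD, n = 3) thus describes none of the 3 rats. The change against I/R was -1.18 (SE 0.49, unadjusted p = 0.0427, adjusted p = 0.196 in limma). Without DHI 1 it was -1.79 with an unadjusted p of 0.000197 in the limma fit, where 45.2% of all tested probes passed the study thresholds. Without DHI 2 or DHI 3 it was -0.79 or -0.95 and no longer passed. It also no longer passed without I/R 1, I/R 2, or any single Sham rat, in a fit of just these 2 groups (unadjusted p = 0.0815 in limma), or with the methods' t-test.

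Cspg4 followed the same split, at 1.82, 0.94, and 1.06 in the 3 DHI rats. On the scale from Sham to I/R these stood at 0.91, 0.17, and 0.27. The change against I/R was -0.66 (SE 0.32, unadjusted p = 0.0751 in limma) and did not pass. Without DHI 1 it was -0.93, with an unadjusted p of 0.0154 in limma, in the fit where 45.2% of all tested probes passed. Without I/R 3 it was -0.89, with an unadjusted p of 0.0296 in limma, where 32.5% passed. It also passed the study thresholds without scaling, at -1.12, and with array weights, at -0.82.

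Olig1, by contrast, measured 2.50, 2.86, and 3.04 in the 3 DHI rats, with DHI 1 inside the Sham range and the other rats above it. The lowest DHI rat was just above the highest I/R rat, at 2.46, so the groups did not overlap. That held for 1 of the 7 genes and for 9.54% of all tested probes. Before scaling the groups did overlap, with DHI 2 at an intensity of 13203 and I/R 1 at 14451. The scaled mean was 2.80 ± 0.27 (SD, n = 3) against 2.09 ± 0.35 (SD, n = 3). The change was 0.71 (SE 0.25), or 1.63-fold, with an unadjusted p of 0.0213 and an adjusted p of 0.196 in limma. Without scaling between arrays it was 0.25 and did not pass. It was also 0.70, 0.54, 0.68, and 0.59 and did not pass without I/R 2, I/R 3, DHI 2, and DHI 3, respectively, and it did not pass with the methods' t-test. Without DHI 1 it was 0.86 with an unadjusted p of 0.0115 in limma, beside the 45.2% of all tested probes that passed in that fit.

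The remaining members passed no threshold in DHI versus I/R. Olig2 measured 0.74, 0.75, and 0.81 in the DHI rats, the tightest of its 3 groups, and its change was 0.20 (95% interval -0.26 to 0.66). Sox10 measured 1.63, 1.14, and 1.56, with a change of 0.32 (95% interval -0.30 to 0.94). Bcas1 measured 4.86, 4.52, and 4.76, with a change of 0.35 (95% interval -0.40 to 1.095). Gpr17 measured -3.62, -3.19, and -3.18, with DHI 1 below every I/R rat and the other two inside the Sham range. Its change was 0.15 (95% interval -0.23 to 0.53). Without scaling these 4 changes took the opposite sign, at -0.26, -0.14, -0.11, and -0.31 for Olig2, Sox10, Bcas1, and Gpr17, where the median of all probes was -0.36. Without DHI 1 they were 0.21, 0.23, 0.27, and 0.29 for the same 4 genes, and none of these 4 passed.

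Within arrays, the difference between 2 members did not overlap between DHI and I/R in 9 of the 21 pairs, 7 of which hold Pdgfra or Cspg4. Pairs of other probes were not counted here either, so the count has no share to be set against. The change of Pdgfra minus that of Olig1 was -1.89 log2 units and that of Cspg4 minus Olig1 was -1.36, with an exact permutation p = 0.1 for each of these pairs and 0.233 after adjustment over the 21. Pdgfra minus Sox10 was 0.88 in DHI 1, -0.64 in DHI 2, and -0.73 in DHI 3. DHI 1 was the only DHI rat above the Sham range of this difference.

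Against Sham, the DHI group passed the study thresholds for 1 of the 7 genes, Olig1, beside 3.58% of all tested probes. Its change was 0.59 (SE 0.25), or 1.51-fold, with an unadjusted p of 0.0444 and an adjusted p of 0.709 in limma. The call did not hold without scaling (0.33), and it ended without Sham 1, Sham 2, I/R 2, DHI 2, or DHI 3, and with the methods' t-test. DHI 1 overlapped the Sham range, and without it the change was 0.74 and passed. With the adjusted p, limma called 0 of the 7 genes and 0% of all tested probes, while 1294 probes had an unadjusted p under 0.05.

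The other changes in DHI versus Sham were 0.66 for Pdgfra (95% interval -0.475 to 1.79), 0.54 for Cspg4 (-0.20 to 1.28), 0.37 for Olig2 (-0.09 to 0.83), 0.55 for Sox10 (-0.07 to 1.17), 0.57 for Bcas1 (-0.17 to 1.32), and -0.12 for Gpr17 (-0.50 to 0.26). Without DHI 1 the values were 0.04 for Pdgfra, 0.26 for Cspg4, 0.39 for Olig2, 0.46 for Sox10, 0.50 for Bcas1, and 0.03 for Gpr17. Without Sham 3, the highest Sham rat for both, Sox10 reached 0.74 and Bcas1 0.82 and both passed the study thresholds, and Sox10 also passed without DHI 2, at 0.70. The other Bcas1 probe gave 0.71 (95% interval -0.18 to 1.60). Olig2 was the 1 member of 7 whose groups did not overlap here, as against 18.6% of all tested probes.

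**Figure D2:**
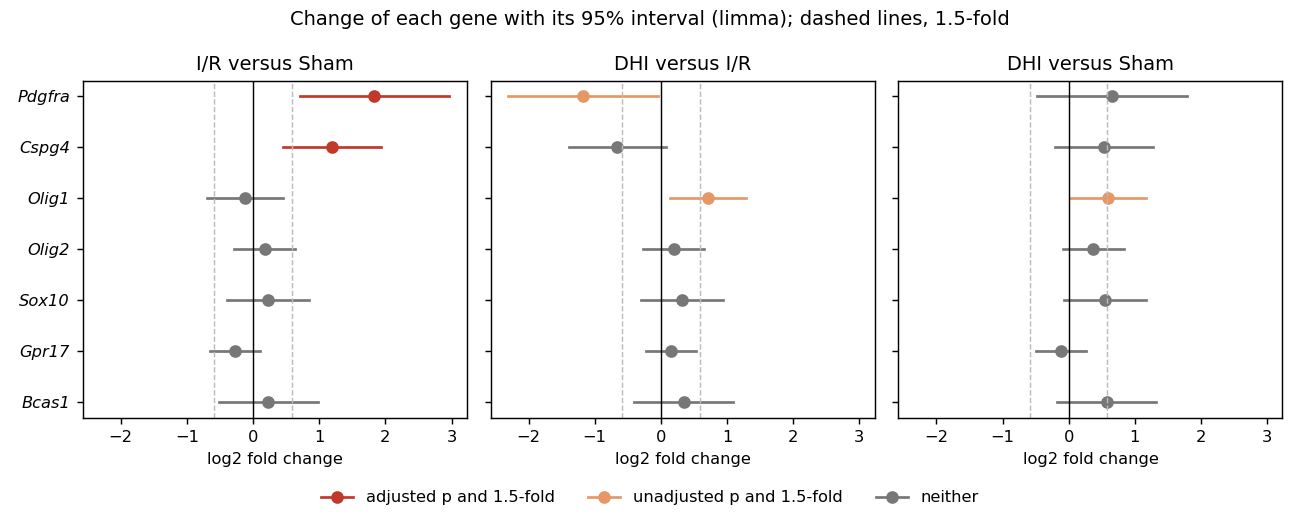
Log2 fold change (horizontal axis) of each gene in the 3 comparisons, with the limma 95% interval as a line, 1.5-fold marked by dashed lines, and color for the threshold passed. Pdgfra and Cspg4 pass the adjusted p in I/R versus Sham, at 1.84 and 1.19, while in the DHI comparisons Olig1 (both) and Pdgfra (against I/R) pass only the unadjusted threshold.

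All members but Gpr17 formed 2 sets by how they varied over the 9 arrays. Pdgfra and Cspg4 had a Pearson correlation of 0.96, and 0.89 after each group's mean was removed. Olig2, Sox10, and Bcas1 had correlations of 0.87 to 0.98 with one another, and 0.79 to 0.97 after the group means were removed. Olig1 correlated at 0.74 to 0.77 with these 3 and at -0.26 with Pdgfra. Gpr17 ran against the surface markers, at -0.91 with Pdgfra and -0.84 with Cspg4, and was at -0.20 to 0.38 with the remaining members. These are descriptions over 9 arrays that share the scaling, and for Pdgfra the arrays lie in a low and a high cluster, which alone gives a high correlation.

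**Figure D3:**
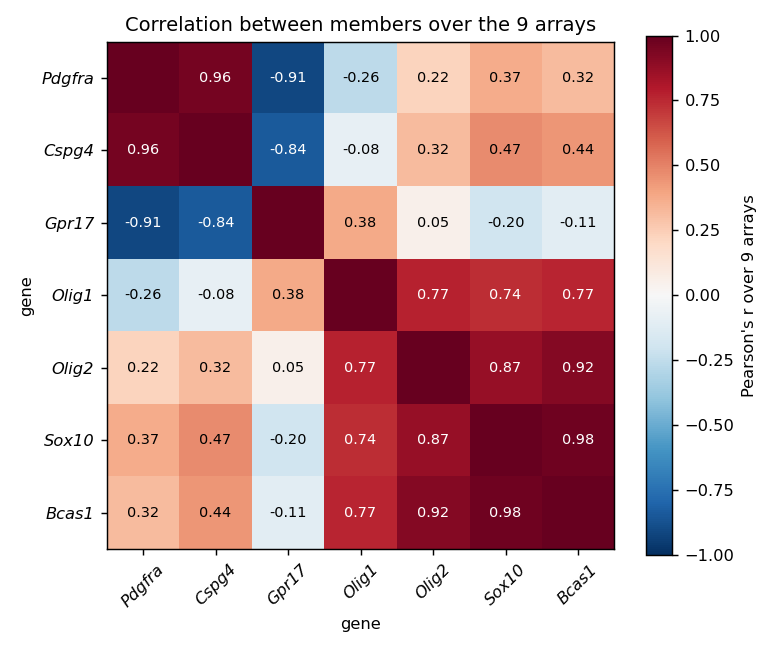
Pearson's r over the 9 arrays for each pair of genes (both axes list the genes, color gives r). Pdgfra and Cspg4 pair at 0.96, Olig1, Olig2, Sox10, and Bcas1 form a block from 0.74 to 0.98, and Gpr17 is negative against both surface markers.

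Among 15577 other gene names, the nearest by Pearson correlation over the 9 arrays were Pdlim2 (0.998) and Tmem150a (0.996) for Pdgfra, and RGD1559808 (0.996) and Hrh4 (0.993) for Cspg4. For Olig1 they were Mxi1 (0.969) and Gjc3 (0.961), a glial gap junction gene. Olig2 lay nearest LOC683713 (0.937) and Pllp (0.923), which codes for the myelin protein plasmolipin. Sox10 lay nearest Nkx6-2 (0.968), a homeobox factor of oligodendrocytes, and Cnp (0.962), a myelin enzyme. Bcas1 lay nearest Pllp (0.993) and Ppp1r14a (0.976). Gpr17 lay nearest Vprbp (0.988) and Lrrc32 (0.984). With 9 arrays and this many genes, high values arise for many genes, so the names describe likeness only.

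Genes of other stages of the lineage were read from lists of known markers. In I/R versus Sham, 5 of 13 tested further precursor genes passed the study thresholds, all higher, where 43.1% of all tested probes passed and 20.8% were higher. Their median change was 0.19. Vcan, which codes for the matrix proteoglycan versican, had a change of 1.35 (SE 0.34, adjusted p = 0.0396 in limma) and was the only one of the 13 to pass the adjusted p. Versican is made by other cells too. Lhfpl3, a gene enriched in precursors, had a change of 0.85 (SE 0.29, adjusted p = 0.0523 in limma). Ptprz1, a receptor phosphatase of precursors and astrocytes, had a change of 0.59 (SE 0.21, adjusted p = 0.0594 in limma). Sox6, which holds precursors immature, had a change of -0.02 and did not pass.

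Of 9 tested genes of committed precursors and early differentiation, 2 passed the study thresholds, both higher, beside 20.8% of all tested probes that were higher. The median of the 9 was 0.53. Enpp6, an enzyme that marks newly forming oligodendrocytes, measured -2.90, -3.63, and -2.08 across the Sham rats, 0.09, -1.56, and -1.47 across the I/R rats, and -0.49, -2.07, and -1.03 across the DHI rats. Every I/R rat was above every Sham rat, and DHI 2 was just above the highest Sham rat. Its change was 1.89 in I/R versus Sham (SE 0.60, adjusted p = 0.0468 in limma) and 1.67 in DHI versus Sham (SE 0.60, unadjusted p = 0.0244, adjusted p = 0.709 in limma). Itpr2, an inositol trisphosphate receptor found in committed precursors and in astrocytes, had a change of 1.48 (SE 0.40, adjusted p = 0.0400 in limma) in I/R versus Sham and, like Pdgfra, was high in DHI 1, at -2.39, and lower in DHI 2 and DHI 3, at -3.77 and -3.86. Zfp488, a zinc finger factor of differentiation, had a change of -0.54 and did not pass.

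Of 13 tested myelin and mature oligodendrocyte genes, 2 passed the study thresholds in I/R versus Sham, both higher, beside the 20.8% of all tested probes that were higher, and the median was -0.06. These were Aspa, the enzyme that breaks down N-acetylaspartate, at 1.65 (SE 0.43, adjusted p = 0.0397 in limma), and Cldn11, the tight junction protein of myelin, at 0.95 (SE 0.39, adjusted p = 0.0894 in limma). Mbp, a main protein of myelin, measured 6.82 to 6.92 across the Sham rats, 6.47 to 6.70 across the I/R rats, and 6.69 to 7.22 across the DHI rats, and its change in I/R versus Sham was -0.24 (SE 0.17).

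With DHI, 3 of the 13 further precursor genes passed against I/R, all higher, with a median of 0.20, where 21.9% of all tested probes passed. They were Tnr, which codes for the matrix protein tenascin-R, at 0.99, the Sox10 relative Sox8 at 0.62, and the channel subunit gene Cacng4 at 0.71. Of the 9 committed genes 0 passed, with a median of -0.13. Of the 13 myelin genes 2 were higher, Mobp at 1.11 and Opalin at 0.87, and 1 was lower, Aspa at -1.08, with a median of 0.50. Against Sham, 3 of the 13 further precursor genes, 1 of the 9 committed genes, and 0 of the 13 myelin genes passed, with medians of 0.36, 0.42, and 0.57. Of all tested probes 3.58% passed against Sham. With the adjusted p, 0 genes of these 3 lists passed in limma in either DHI comparison. An unadjusted p under 0.05 was reached by Tnr, Sox8, Sox6, Cacng4, Mobp, Aspa, and Opalin against I/R and by Neu4, Lhfpl3, Sox6, Cacng4, and Enpp6 against Sham.

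The growth factors that act on precursors moved in both directions. Among 12 tested ligands, 4 were higher and 3 lower in I/R versus Sham, with a median of 0.16. Of all tested probes 20.8% were higher and 22.3% lower. Igf1, insulin-like growth factor 1, a survival and maturation factor, measured 0.82, 0.13, and 0.14 across the Sham rats, 5.05, 4.90, and 3.65 across the I/R rats, and 4.47, 0.07, and 0.31 across the DHI rats. It thus had the same split in the DHI group as Pdgfra. Its change in I/R versus Sham was 4.17 (SE 1.08, adjusted p = 0.0396 in limma). Cntf, ciliary neurotrophic factor, was higher by 1.43 (SE 0.40, adjusted p = 0.0405 in limma), and Nrg1, neuregulin 1, was lower, at -2.46 (SE 0.55, adjusted p = 0.0396 in limma). Pdgfa, which codes for the main ligand of the Pdgfra receptor, was lower, at -0.59 (SE 0.21, unadjusted p = 0.0243, adjusted p = 0.0622 in limma), while Pdgfb and Pdgfc, at 0.54 and 0.24, did not pass.

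Among 12 tested receptors and effectors, 4 were higher and 3 lower in I/R versus Sham, with a median of 0.12. The shares of all tested probes were 20.8% higher and 22.3% lower. Fgfr1, a fibroblast growth factor receptor, changed by 1.53 (SE 0.36), and Notch1, whose signal holds precursors undifferentiated, by 0.84 (SE 0.20), with an adjusted p of 0.0396 in limma for each. Id2, an inhibitor of helix-loop-helix factors, changed by -1.08 (SE 0.23, adjusted p = 0.0396 in limma). Cysltr1, a receptor related to Gpr17, did not stand well above background on a single array. With DHI, compared with I/R, 1 ligand was higher and 2 lower, and 2 receptors or effectors were higher and 2 lower, with medians of -0.30 and 0.20. All tested probes were higher in 11.5% and lower in 10.5% of cases. Against Sham, 0 genes of either list passed, at the unadjusted p as well, with medians of 0.05 and 0.20.

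Genes of cell division were higher after ischemia. In I/R versus Sham, 6 of 7 tested cell cycle genes passed, all higher, with a median of 2.11, beside 20.8% of all tested probes that were higher. Cdk1, the kinase that drives mitosis, measured -4.22, -4.50, and -4.02 across the Sham rats and -0.06, 0.31, and -0.81 across the I/R rats, and was -0.11, -3.66, and -2.004 in DHI 1, DHI 2, and DHI 3. Top2a changed by 4.33 (SE 0.91, adjusted p = 0.0396 in limma) and Mcm2 by 2.11. Against I/R, 2 of these 7 genes were lower with DHI, and against Sham 2 were higher, with medians of -1.09 and 0.76. Of all tested probes 10.5% were lower against I/R, and 3.58% passed against Sham. Which cells divided cannot be read from whole tissue.

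**Figure D4:**
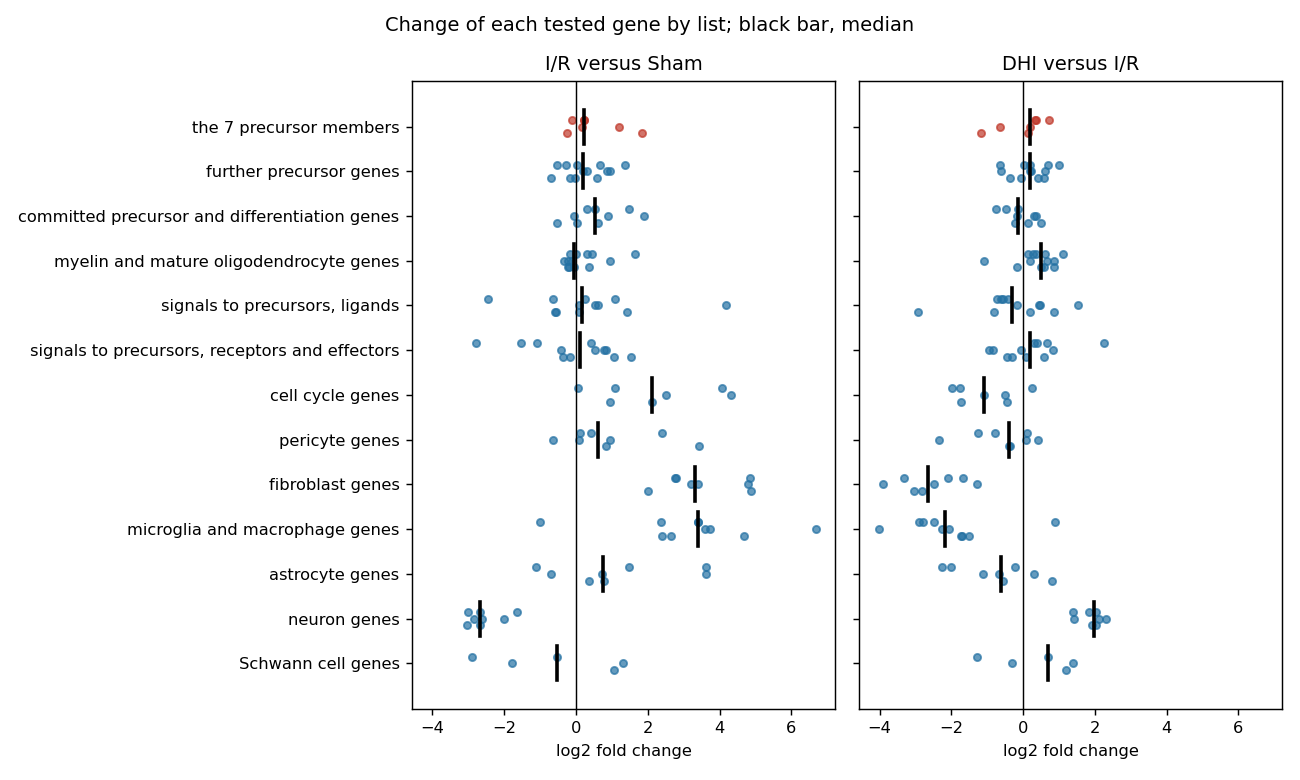
Log2 fold change (horizontal axis) of each tested gene by list in I/R versus Sham (left) and DHI versus I/R (right), 1 point per gene, black bar the list median. The 7 precursor genes have a median of 0.23 and 0.20, between the fibroblast genes at 3.30 and -2.64 and the neuron genes at -2.66 and 1.97.

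Markers of fibroblasts, which also carry Pdgfra, were high on the same arrays as Pdgfra. All 8 fibroblast genes were higher in I/R versus Sham, with a median of 3.30, and all 8 passed the adjusted p, as did 31.5% of all tested probes. Col1a1, a chain of fibrillar collagen, measured -0.18, -0.43, and -0.97 across the Sham rats, 4.67, 4.41, and 3.66 across the I/R rats, and 4.42, -0.60, and -0.23 across the DHI rats. Col3a1 changed by 4.87 (SE 1.22) and Postn, periostin, by 2.77 (SE 0.56) in I/R versus Sham. The summed signal of the 8 genes, in multiples of the 75th percentile, was 5.38 to 9.39 over the Sham arrays, 72.1 to 114 over the I/R arrays, and 101 in DHI 1, against 5.57 in DHI 2 and 6.27 in DHI 3. The arrays with a high fibroblast sum were thus the same 4 arrays on which Pdgfra was above 2. This split was not particular to fibroblast genes. The same 4 arrays also had the highest sums of microglia and macrophage, cell cycle, pericyte, and ligand genes and the lowest sums of neuron genes. The microglia and macrophage sum, for one, was 40.4 or more on them and 12.5 or less on the others. Of the 8 fibroblast genes 7 were lower in DHI versus I/R (median -2.64), where 10.5% of all tested probes were lower. In DHI versus Sham 0 passed (median 0.94). The part of fibroblasts in the values of Pdgfra was not tested.

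Pericyte genes moved less as a list. In I/R versus Sham, 3 of 8 passed, all higher, where 43.1% of all tested probes passed, with a median of 0.62: Pdgfrb at 2.38, Anpep at 3.43, and Vtn at 0.94. Kcnj8 and Abcc9, which code for the pericyte potassium channel, did not pass, at 0.07 and -0.64. The summed signal was 2.90 to 4.20 over the Sham arrays, 5.24 to 8.13 over the I/R arrays, and 3.68 to 5.65 over the DHI arrays, highest in DHI 1. With DHI, 2 of 8 were lower than in I/R, where 10.5% of all tested probes were lower. Against Sham 0 passed, and the medians were -0.38 and 0.20. The part of pericytes in the values of Cspg4 was not tested. All 8 pericyte and all 8 fibroblast genes were tested, and 8 and 7 of them were well above background on all 9 arrays.

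**Figure D5:**
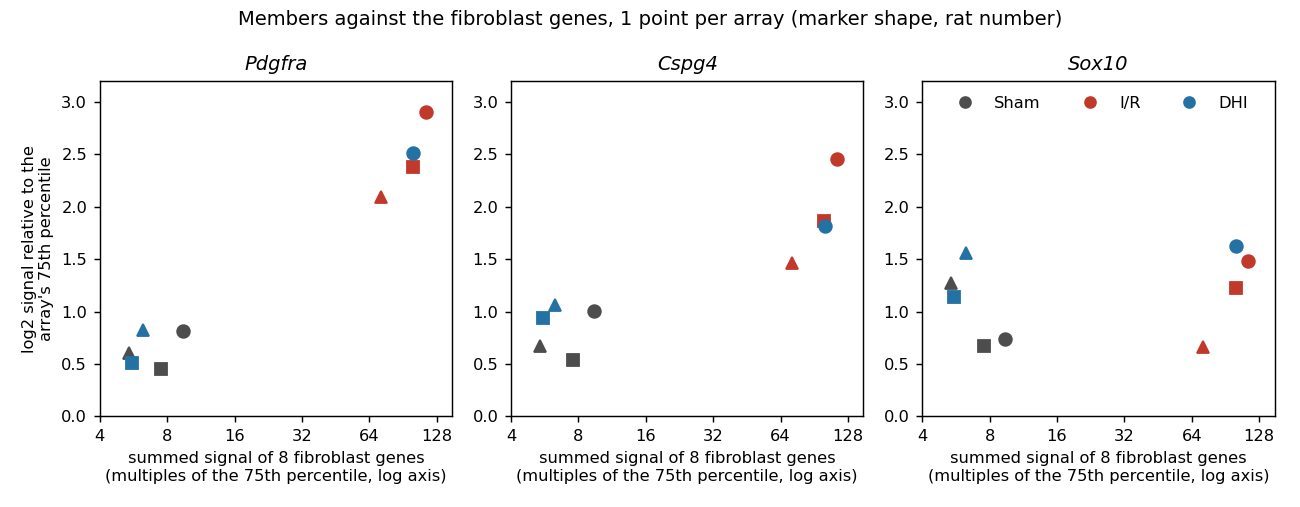
Log2 signal of Pdgfra, Cspg4, and Sox10 relative to the array's 75th percentile (vertical axis) against the summed signal of 8 fibroblast genes in multiples of that percentile (horizontal log axis), 1 point per array. Pdgfra lies between 2.10 and 2.90 on the 4 arrays with a fibroblast sum of 72.1 or more and between 0.45 and 0.82 on the other five, while Sox10 covers nearly the same range on both. The same 4 arrays also had the highest microglia, cell cycle, and pericyte sums.

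The other markers give the setting, beside 20.8% of all tested probes that were higher and 22.3% that were lower in I/R versus Sham. Of 10 microglia and macrophage genes 9 were higher in I/R versus Sham (median 3.40), with a summed signal of 8.90 to 10.9 over the Sham arrays, 40.4 to 116 over the I/R arrays, and 61.1, 12.1, and 12.5 in the DHI rats. Cd68, Ptprc, and Tmem119 changed by 6.69, 4.68, and 2.36. All 8 neuron genes were lower (median -2.66), with a sum of 50.7 to 61.8 over the Sham arrays, 5.17 to 26.6 over the I/R arrays, and 17.7, 60.0, and 40.3 in the DHI rats, and Snap25, Rbfox3, and Nefl changed by -3.004, -2.85, and -3.04. Of 8 astrocyte genes 5 were higher, among them Gfap at 3.63, Vim at 3.62, and Gja1 at 0.79. The 2 lower genes were Slc1a2 at -1.12 and Aldoc at -0.70. The median was 0.75, and the sum was 139 to 175 over all arrays.

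Of 5 tested Schwann cell genes, read because such cells can enter lesions and carry Sox10, 1 was higher and 2 lower (median -0.53), with Egr2 at -2.91, Gap43 at -1.78, and Prx at 1.06. The shares of all tested probes were 20.8% higher and 22.3% lower. With DHI, compared with I/R, 7 microglia genes and 3 astrocyte genes were lower, 7 neuron genes were higher, and 1 Schwann cell gene was higher, with medians of -2.17, -0.61, 1.97, and 0.70. Of all tested probes 10.5% were lower and 11.5% higher in this comparison. Against Sham, where 3.58% of all tested probes passed, 0 microglia genes and 0 neuron genes did. There 1 astrocyte gene was higher and 1 Schwann cell gene was lower. The medians were 1.04 for microglia, -0.74 for neuron, 0.19 for astrocyte, and 0.04 for Schwann cell genes. The neuron, astrocyte, and oligodendrocyte markers were well above background on every array, and their part in the member values was not tested.

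For the lists, leaving out DHI 1 was chosen after these data had been seen. Without it, 45.2% of all tested probes passed the study thresholds against I/R. Of the lineage lists, 3 further precursor genes were higher and 2 lower, 1 committed gene was lower, and 1 myelin gene was higher and 1 lower, with medians of 0.16, -0.35, and 0.49. Of the signals, 4 ligands were higher and 4 lower, and 2 receptors or effectors were higher and 2 lower, with medians of -0.32 and 0.23. All 8 fibroblast genes, 9 microglia genes, 5 cell cycle genes, 5 astrocyte genes, 3 pericyte genes, and 1 Schwann cell gene were lower, with medians of -3.93, -3.26, -1.63, -0.86, -0.51, and 1.00. All 8 neuron genes, 3 Schwann cell genes, 1 microglia gene, 1 astrocyte gene, and 1 pericyte gene were higher, and the neuron median was 2.49.

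Against Sham without DHI 1, 3 further precursor genes and 1 cell cycle gene were higher, 1 ligand was lower, and 0 genes of the other lists passed, where 3.5% of all tested probes did. The medians were 0.46, 0.26, and 0.53 for the further precursor, committed, and myelin genes, 0.06 and 0.27 for the ligands and the receptors and effectors, and 0.46 for the cell cycle genes. For the other cell types they were -0.25 for fibroblast, 0.17 for pericyte, 0.29 for microglia, 0.05 for astrocyte, -0.19 for neuron, and 0.21 for Schwann cell genes.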

How the data were processed

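For each array the authors deposited the spot intensity on a linear scale, as given by Agilent Feature Extraction 10.7.1.1 (per the labels), corrected for background and not scaled between arrays. They also deposited a log2 table of 1 value per probe, whose scaling is not stated and which followed quantile-normalized log2 intensities (Pearson's r of 0.9995 on each array). It was used as an alternative. No column was left unused (0).

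Control spots and outlier spots were left out, spots of a probe were averaged, and log2 signals were set against the 75th percentile of the array. A probe was tested where some group had it well above background on each of its 3 arrays (23747 of 30367). One limma 3.58.1 model (lmFit, eBayes, R 4.3.3) was fitted over all 9 arrays without covariates. Adjusted p-values are Benjamini-Hochberg over all tested probes. The study thresholds are those of the study's methods, whose t-test was an alternative (the methods' t-test). The fit was also run on simulated data with independent noise, which lack the unevenness between arrays seen here, so that run cannot speak to the calls. Member pairs were compared by exact permutation. Other alternatives were quantile normalization, no scaling, normexp (offset 50), outlier spots kept, other probe filters, weights per array, blocks by replicate number, a fit of just the groups at hand, the mean of a gene's probes, and each array left out. The accessions of all 9 member probes carry the same symbol in the RefSeq table.

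The members and the 12 lists (further precursor, committed, myelin, ligands, receptors and effectors, cell cycle, pericyte, fibroblast, microglia and macrophage, astrocyte, neuron, and Schwann cell genes) were chosen with earlier results of these arrays known. A gene stands by its brightest probe. Named genes are all members, the 3 tested genes of each list with the smallest p in I/R versus Sham, and the 2 genes nearest each member; other list genes were named after their values were seen. The number of arrays limits the precision.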

Additional observations from a re-analysis of the deposited data

How the results depend on the processing

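In I/R versus Sham 2 members passed the study thresholds under every alternative, as did 31.7% to 55.8% of all probes. With the adjusted p there were 0 of them without scaling, 1 with the methods' t-test, and 0 to 2 when single arrays were left out. Of all tested probes 0.00421% passed it without scaling and 26% with the methods' t-test. In DHI versus I/R the study thresholds were passed by 1 member in the model of only the 2 groups, by 0 with the methods' t-test, and by 0 to 3 when single arrays were left out. Of all tested probes 9.05%, 1.97%, and 3.95% to 45.2% passed in these fits. With the adjusted p there were 3 members with array weights and 0 to 3 when single arrays were left out, the 3 without DHI 1. Of all tested probes 51.4% passed it with array weights and 40.1% without DHI 1, so these counts are no result about the set. In DHI versus Sham the study thresholds were passed by 0 members without scaling, with the replicate block, and with the methods' t-test, by 2 with array weights, and by 0 to 3 when single arrays were left out, the 3 without Sham 3. Of all tested probes 17.6% passed with array weights and 2.35% without Sham 3. With the adjusted p there were 2 members with array weights, beside 17.2% of all tested probes.

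Same-numbered arrays of different groups had correlations of their deviations between -0.34 and 0.48, so the numbers were not taken as pairs. With the replicate number as a block, 2, 3, and 0 members passed the study thresholds for I/R against Sham, DHI against I/R, and DHI against Sham. Of all tested probes 43.8%, 26.6%, and 5.39% passed in these comparisons. Cspg4 was added against I/R and Olig1 was lost against Sham.

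Values that changed sign were all of members that had not passed. In I/R versus Sham, Olig1 was 0.0789 without scaling and -0.30 to 0.0522 with single arrays left out, above 0 without Sham 3 (0.0480) or I/R 3, and Bcas1 was -0.0460 to 0.53, below 0 without I/R 1. In DHI versus I/R without scaling, Olig2, Sox10, Gpr17, and Bcas1 were -0.26, -0.14, -0.31, and -0.11. In DHI versus Sham, Gpr17 was 0.00603 with normexp and -0.19 to 0.0269 with single arrays left out, above 0 without DHI 1. Over all probes, the calls in DHI versus I/R were 5211 as reported, 469 with the methods' t-test, 2149 in the model of only the 2 groups, 12208 with array weights, and 939 to 10737 with single arrays left out. Those in DHI versus Sham were 849 as reported and 344 to 4169 under the alternatives. At the adjusted p, the whole array gave 7471 calls in I/R versus Sham as reported, 1 without scaling, 13215 with array weights, and 0 to 10266 with single arrays left out. The corresponding calls in DHI versus I/R were 1 as reported, 12204 with array weights, and 0 to 9527 with single arrays left out, and those in DHI versus Sham were 0 as reported and 4080 with array weights. The causes were not tested.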
